A study of Mus musculus with 12 samples.

Results

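Semaphorins are secreted or membrane-bound signals that steer growing axons and vessels and modulate immune cells. Plexins are their main receptors, and neuropilins are co-receptors that bind the secreted class 3 semaphorins and also vascular endothelial growth factors. This family comprised 31 of the 24062 genes measured, chosen by symbol alone: the semaphorins of classes 3 to 7 (20 genes), the plexins of classes A to D (9 genes), and both neuropilins, Nrp1 and Nrp2. Class 3 had 7 genes, class 4 had 6, class 5 had 2, class 6 had 4 and class 7 had 1. All 31 were found in the GENCODE M21 annotation of the mouse genome GRCm38.

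RNA was sequenced from brain and from spleen of male C57BL/6 mice at 10 weeks of age, in 4 groups of 3 libraries: Norad+/+ brain, Norad-/- brain, Norad+/+ spleen and Norad-/- spleen. Norad is a long noncoding RNA that binds the PUMILIO proteins, which repress mRNAs carrying their binding site. Norad-/- mice lack it in every cell, through a Cas9-made germline deletion on a C57BL/6J background, and which of the study's independent deletion lines gave these mice is not given in the sources used here. Levels are FPKM, the read coverage of a gene scaled by transcript length and sequencing depth, so they can be compared between genes. In bulk tissue, fewer cells of a type and less RNA per cell cannot be told apart.

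Norad itself was at 206, 259 and 635 FPKM in Norad+/+ brain and at 62, 42.9 and 56.3 FPKM in Norad+/+ spleen, and at no more than 0.0173 FPKM in any Norad-/- library. The depth estimated from the smallest FPKM steps was 28.5 to 36.8 M reads in brain and 31.7 to 35.3 M in spleen. The libraries least like the rest of their tissue were replicate 3 of Norad+/+ brain and of Norad+/+ spleen. Over genes averaging 1 FPKM or more in the tissue, the Spearman correlations of Norad+/+ brain replicate 3 had a median of 0.949 (0.973 to 0.979 for the rest). The median for Norad+/+ spleen replicate 3 was 0.948 (0.961 to 0.971 for the rest). Norad-/- brain replicate 3 held pituitary RNA, with a summed level of 1314 FPKM over 3 pituitary markers, against at most 1.03 FPKM in the other brains. Norad+/+ spleen replicate 3 held RNA of pancreas, with a sum of 176 FPKM over 3 markers against at most 9.51 in the other spleens, and of liver, with 76.4 FPKM over 2 markers against at most 0.062. The tissue labels held, since neuron markers summed to 1255 to 1733 FPKM in brain and 1.12 to 11.6 FPKM in spleen, and B cell markers to 769 to 996 FPKM in spleen and 0.109 to 2.27 FPKM in brain.

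PUMILIO proteins recognise the RNA motif UGUANAUA, the PUMILIO response element (PRE). It was looked for on the sense strand of 1 annotated 3' UTR per gene, the longest. At least 1 PRE was present in 13 of the 31 genes (41.9%) and in 24% of the 19295 genes with an annotated 3' UTR, and 2 or more in 5 of the 31 (16.1%) and in 7.49% of all genes. Longer 3' UTRs hold more matches, and the family's were longer, with a median of 1400 bases against 1001 for all genes. By length, a PRE was present in 3 of 11 members and 9.13% of all genes below 1000 bases, and in 1 of 7 members and 27.3% of all genes from 1000 to 2000 bases. It was present in 4 of 5 members and 39.1% of all genes from 2000 to 3000 bases, and in 5 of 8 members and 57.8% of all genes from 3000 bases.

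The following 26-base windows show the PREs of Sema6d, the member that changed in spleen, of Sema3a and Sema3d, the class 3 ligands with the lowest adjusted p in spleen, and of Plxna1, the member with the most sites. They are printed 5' to 3' as DNA with the PRE in capitals.
Sema6d site 1, chr2:124666620-124666627, plus strand: acagtgaacTGTAAATAccacatgtg
Sema6d site 2, chr2:124667703-124667710, plus strand: ttgtggatgTGTAAATAatatgtact
Sema3a site, chr5:13602240-13602247, plus strand: agacaaaggTGTAAATAattttgaaa
Sema3d site 1, chr5:12585562-12585569, plus strand: ttaatgtcaTGTAAATAatcaagtta
Sema3d site 2, chr5:12588427-12588434, plus strand: aagatgtatTGTACATAttttactga
Plxna1 site 1, chr6:89318318-89318325, minus strand: aatggacccTGTACATAtatatatgt
Plxna1 site 2, chr6:89318294-89318301, minus strand: gtatgtatgTGTATATAtatatatgt
Plxna1 site 3, chr6:89316399-89316406, minus strand: catcagatgTGTAAATAtacggctat
Plxna1 site 4, chr6:89316350-89316357, minus strand: tttagtactTGTAAATAaacacacat

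Plxna1, a receptor of class 3 and class 6 semaphorins, carried 4 PREs, and Plxna2, Sema3d, Sema4c and Sema6d carried 2 each. Plxna3, Plxna4, Plxnc1, Sema3a, Sema3c, Sema3f, Sema5a and Sema6b carried 1 each. The other 18 genes, among them Sema3e, Plxnb2, Plxnd1 and both neuropilins, had no match in the 3' UTR searched. Of the 20 sites, 7 (35%) ended within the last 100 bases of the transcript, against 13.5% of the 6874 sites of all genes. The second site of Sema6d began 2394 bases after the stop codon of a 3' UTR of 2461 bases.

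**Figure D1:**
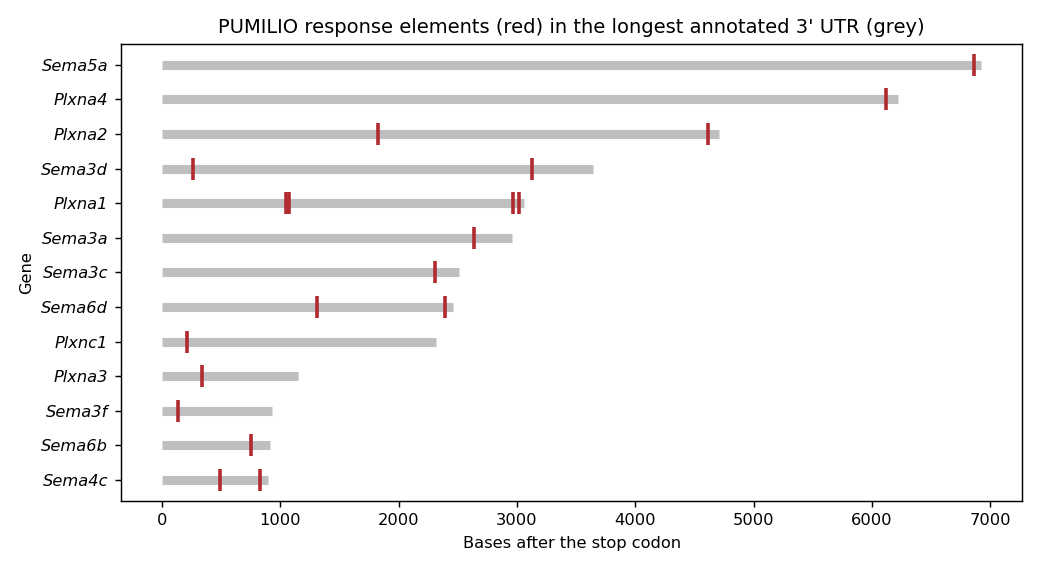
Position of each PRE (red) in bases after the stop codon, along the longest annotated 3' UTR (grey) of the 13 family genes that have one, ordered by length. Sites of Plxna1, Plxna2, Plxna4, Sema4c, Sema5a and Sema6d lie in the last 100 bases.

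The family is expressed in both tissues but in different proportions. In Norad+/+ mice the summed level of the 20 semaphorins was 170 ± 12.6 FPKM (SD, n = 3) in brain and 149 ± 3.81 in spleen, and that of the 9 plexins was 80.6 ± 8.2 and 63.5 ± 2.12. Class 4 semaphorins, membrane proteins several of which act on lymphocytes, made up 42.9% of the family's FPKM in Norad+/+ spleen and 16.8% in Norad+/+ brain. Class 6 semaphorins, membrane guidance cues, made up 17.2% in brain and 7.56% in spleen, and the class A plexins 14.5% and 4.01%. Genes were tested in a tissue if their 6 values there averaged 1 FPKM or more, which held for 30 members in brain and 21 in spleen.

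**Figure D2:**
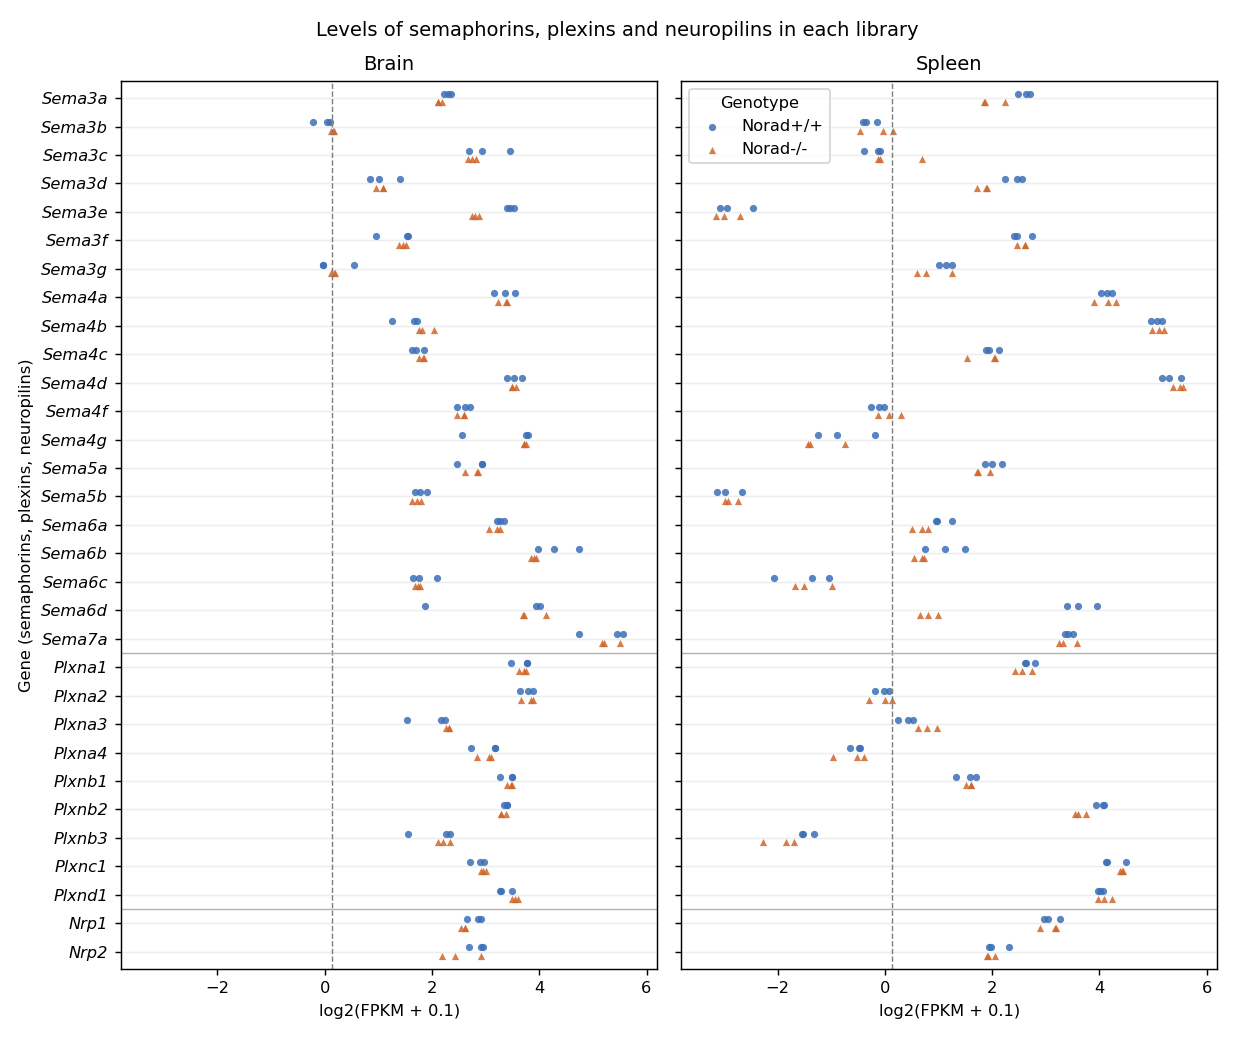
Level of each of the 31 genes as log2(FPKM + 0.1) in brain (left) and spleen (right), with a point for each library (blue circles Norad+/+, orange triangles Norad-/-); the dashed line is 1 FPKM. Sema7a has the highest points in brain and Sema4d in spleen, and in spleen the Sema6d points of the genotypes lie apart.

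Among brain ligands, Sema7a, the membrane-anchored semaphorin that signals through Plxnc1 and integrins, had the highest level. It was at 43.7, 47.3 and 26.8 FPKM in Norad+/+ and 35.8, 36.9 and 45.4 FPKM in Norad-/- libraries, and the groups overlapped. Sema6b, a ligand of class A plexins, followed with 19.2, 15.7 and 26.7 FPKM in Norad+/+ and 14.9, 14.3 and 15.2 FPKM in Norad-/- libraries. The next ligands by mean were Sema6d (13 FPKM over the 6 brain libraries) and Sema4g (12.1 FPKM). Sema4g was at 13.8, 13.4 and 5.77 FPKM in Norad+/+ and at 13, 13.3 and 13.1 FPKM in Norad-/- libraries, so 1 library, Norad+/+ brain replicate 3, was low and the other 5 were within 1 FPKM. Past Sema7a, the library values of neighbours in this order overlapped.

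The highest brain receptor was Plxna2, a receptor of class 6 semaphorins, with 14.7, 13.7 and 12.4 FPKM in Norad+/+ and 14.6, 14.2 and 12.6 FPKM in Norad-/- libraries. Plxna1 was at 13.5, 13.6 and 11 FPKM in Norad+/+ and 13.3, 13.1 and 12.2 FPKM in Norad-/- libraries. Plxnb1, the receptor of Sema4d, was at 11.2, 11.2 and 9.47 FPKM in Norad+/+ and 11.2, 11 and 10.5 FPKM in Norad-/- libraries. These 3 receptors overlapped between the genotypes, with log2 fold changes of Norad-/- against Norad+/+ from 0.02 to 0.04. Plxnd1, the receptor of Sema3e, was the other of the 4 highest and is described with the genotype comparison.

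In spleen the highest ligands were Sema4d and Sema4b. Sema4d, also known as CD100 and made by T cells, was at 45.8, 39.3 and 35.6 FPKM in Norad+/+ and 45.2, 46.7 and 41.2 FPKM in Norad-/- libraries. Sema4b was at 31.2, 33.5 and 35.7 FPKM in Norad+/+ and 31.6, 36.8 and 34.5 FPKM in Norad-/- libraries. Sema4a, a ligand on dendritic and T cells, was at 16.3, 18.6 and 17.6 FPKM in Norad+/+ and 17.8, 19.8 and 14.9 FPKM in Norad-/- libraries. All 3 overlapped between the genotypes, and so did Sema7a, which followed with 10.5, 11.3 and 10.2 FPKM in Norad+/+ and 9.87, 11.8 and 9.41 FPKM in Norad-/- libraries.

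Among spleen receptors Plxnc1, the plexin that binds Sema7a, was highest with 22.5, 17.4 and 17.6 FPKM in Norad+/+ and 21.5, 21.3 and 20.8 FPKM in Norad-/- libraries. Plxnd1 was at 16, 16.6 and 15.5 FPKM in Norad+/+ and 15.7, 18.8 and 16.9 FPKM in Norad-/- libraries. Nrp1 was at 9.53, 8.16 and 7.76 FPKM in Norad+/+ and 9.02, 8.96 and 7.33 FPKM in Norad-/- libraries. The genotypes overlapped at each of these, and the remaining receptor of the 4 highest, Plxnb2, is described below.

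Brain and spleen of Norad+/+ mice were compared to show where each member is used. Of the 30 members tested, 17 were higher in brain (limma on log2(FPKM + 0.1), adjusted p below 0.05) and 9 were higher in spleen. Over all 14216 genes tested, 35.4% were higher in brain and 43.6% higher in spleen, and the median log2 fold change of brain against spleen was 0.88 for the members and -0.24 for all genes. The tissue tables were scaled by the same authors in the same way but hold separate libraries, so each tissue fold rests on FPKM being comparable across them.

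Sema3e, a class 3 ligand that binds Plxnd1 without a neuropilin, differed most. It was at 11.4, 10.4 and 10.9 FPKM in Norad+/+ brain and at 0.0184, 0.0306 and 0.0816 FPKM in spleen (log2 fold change 6.28, SE 0.21, adjusted p = 8.77e-07), a size that depends on the pseudocount of 0.1 and ranged from 3.51 to 7.85 over the other settings. Sema5b, a membrane semaphorin with thrombospondin repeats, was 4.72 higher on the log2 scale (SE 0.20) and Sema4g 4.15 higher (SE 0.42). Receptors with the largest brain excess were Plxna2 (log2 fold change 3.82, SE 0.14), Plxna4, a receptor of Sema3a and Sema6 ligands (3.55, SE 0.18), and Plxnb3 (3.51, SE 0.25). These receptors were below the mean of 1 FPKM in spleen. The sizes of such folds also moved with the setting, Sema5b between 2.08 and 6.43, Sema4g between 2.91 and 4.52, Plxna2 between 2.96 and 4.11, Plxna4 between 2.50 and 3.88, and Plxnb3 between 2.0 and 3.97. The remaining members higher in brain were Sema6c, Sema3c, Sema6b, Sema4f, Sema6a, Plxnb1, Sema7a, Plxna3, Plxna1, Nrp2 and Sema5a, with log2 fold changes from 3.33 down to 0.77.

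Sema4b showed the largest spleen excess, with 3.06, 3.19 and 2.27 FPKM in Norad+/+ brain against 31.2 to 35.7 FPKM in spleen (log2 fold change -3.52, SE 0.16, adjusted p = 2.17e-06). Sema4d followed with -1.80 (SE 0.14), and Plxnc1 with -1.40 (SE 0.15). The class 3 ligands Sema3d, Sema3f and Sema3g were also higher in spleen, with log2 fold changes of -1.33, -1.19 and -0.97, as were Sema4a (-0.78), Plxnd1 (-0.67) and Plxnb2 (-0.64). Ligand and known receptor were thus not always higher in the same tissue, since Sema7a was 1.83 higher in brain on the log2 scale while Plxnc1 was higher in spleen, and Sema3e was higher in brain while Plxnd1 was higher in spleen. Sema3a, Sema4c, Nrp1 and Sema6d did not pass, with log2 fold changes from -0.38 to -0.25, and Sema3a was nearest to the threshold (adjusted p = 0.0509). The fold of Sema6d, -0.38, became 0.33 without Norad+/+ brain replicate 2.

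**Figure D3:**
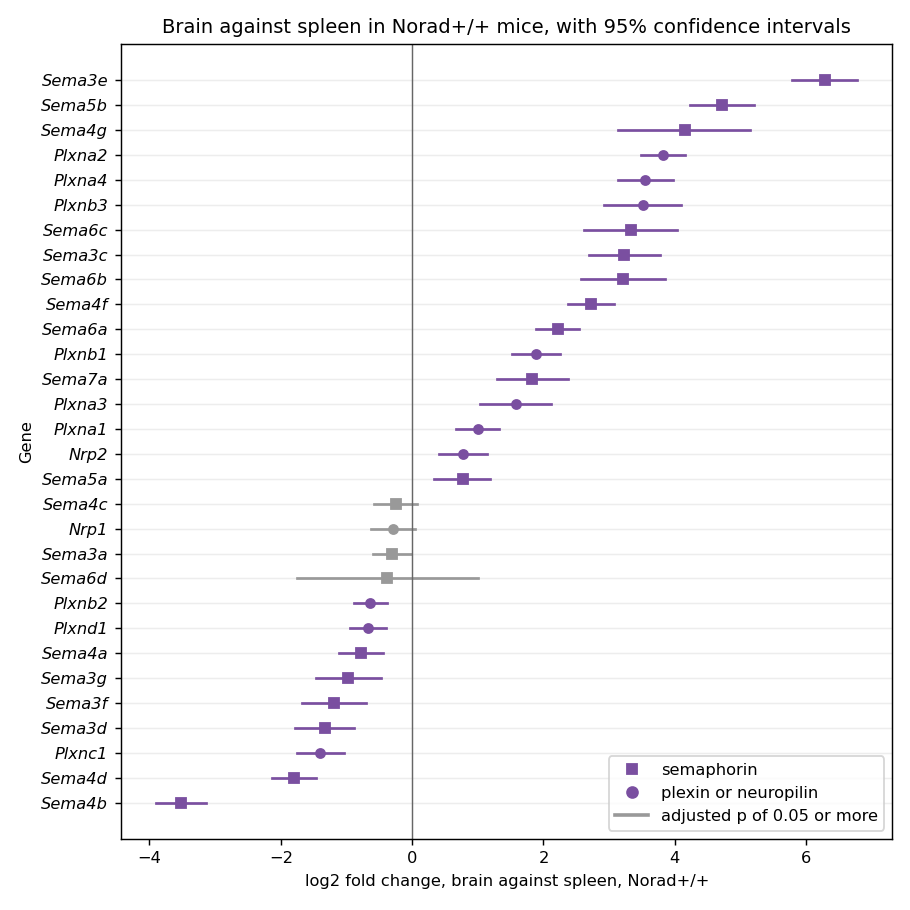
Log2 fold change of brain against spleen in Norad+/+ mice (3 libraries each) for the 30 genes tested, with 95% confidence intervals; squares are semaphorins, circles plexins and neuropilins, and grey marks an adjusted p of 0.05 or more. Sema3e is at 6.28 and Sema4b at -3.52.

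The genotype comparison asked which members change when Norad is lost. In spleen 1 of 21 members passed, Sema6d, and it fell. Over all 12397 genes tested in spleen, 3 (0.0242%) were lower, the deleted Norad and Sema6d among them, and 1 (0.00807%) was higher at this threshold. At an unadjusted p below 0.05, 5 spleen members were lower and 1 higher, and 2600 of all genes differed. In brain 0 of 30 members passed in either direction by limma, and 1 had an unadjusted p below 0.05. Over the 13051 genes tested in brain, 2 (0.0153%) were lower, the deleted Norad among them, and 0% higher, with 864 at an unadjusted p below 0.05.

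**Figure D4:**
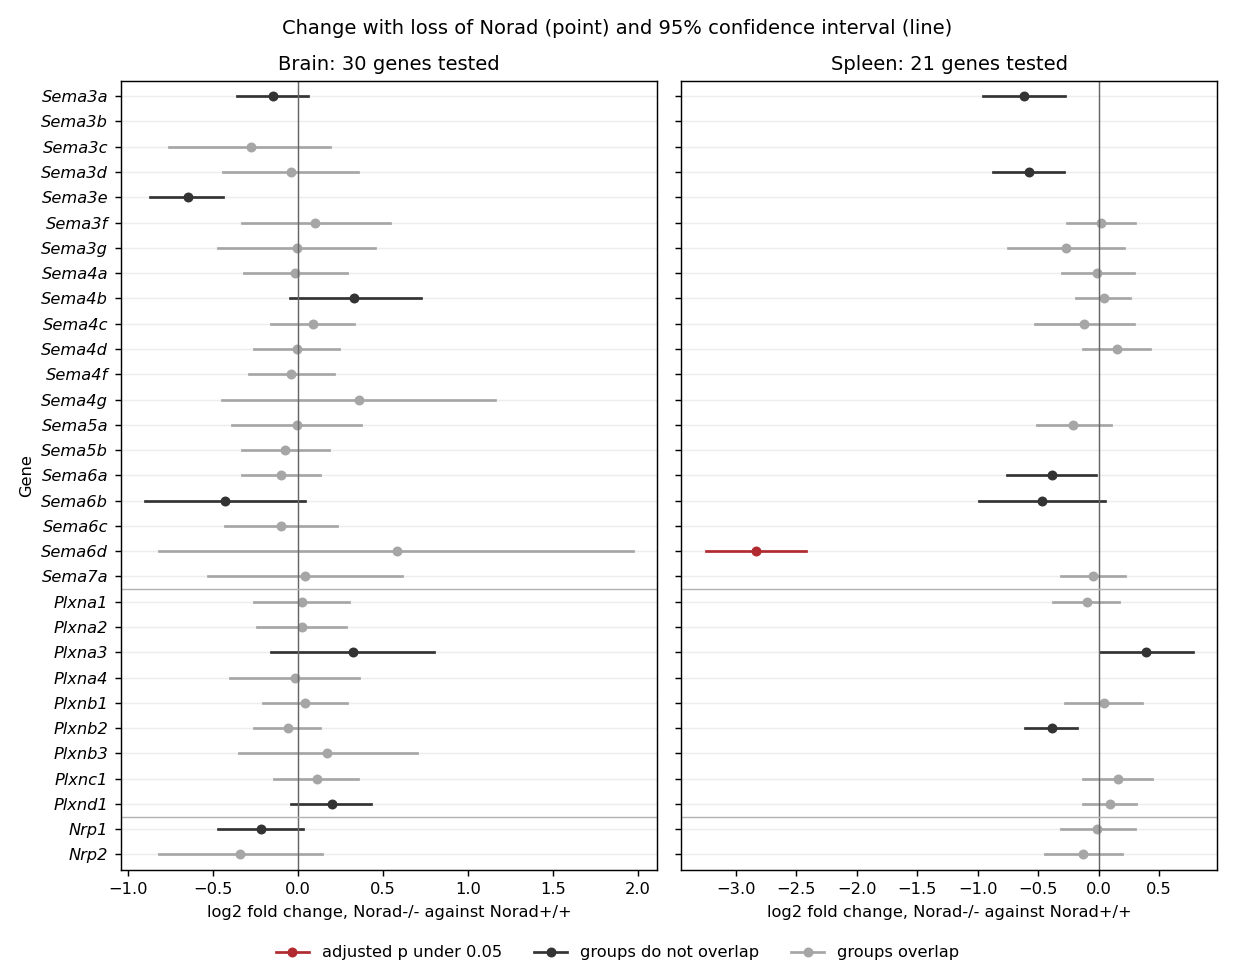
Log2 fold change of Norad-/- against Norad+/+ (point) with its 95% confidence interval (line) in brain (30 genes tested) and spleen (21 genes tested), on axes of different range. Red marks an adjusted p below 0.05, black marks groups that do not overlap, and grey marks groups that overlap; Sema6d in spleen, at -2.83, is the only red point.

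Sema6d is a membrane semaphorin that binds class A plexins, Plxna1 among them. The gene spans chr2:124089969-124667770 on the plus strand, on the chromosome that also holds Norad (chr2:156388065-156392979), 31720294 bases away. In spleen it was at 10.4, 15.4 and 12 FPKM in Norad+/+ and at 1.47, 1.64 and 1.89 FPKM in Norad-/- mice. Every Norad-/- library was below every Norad+/+ library, and the 3 Norad-/- values were close to each other. The level was 7.13-fold lower on the log2(FPKM + 0.1) scale (log2 fold change -2.83, SE 0.17, 95% interval -3.25 to -2.42, limma adjusted p = 0.0135). Over the other settings the change lay between -2.90 and -2.34, and with any 1 library left out between -2.96 and -2.68. The adjusted p rose to 0.0528 without Norad-/- spleen replicate 1, to 0.0884 without Norad-/- spleen replicate 2, and to 0.0617 with a replicate block, and over all alternatives it ranged from 0.00565 to 0.0884. The annotation gives Sema6d 11 transcripts, of which 8 are coding, and the tables give 1 value per gene, so which transcripts fell was not analysed here.

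In brain Sema6d was at 16.1, 3.54 and 15.2 FPKM in Norad+/+ and at 12.8, 13.1 and 17.4 FPKM in Norad-/- mice. Norad+/+ brain replicate 2 was far below the other 5 libraries, and the groups overlapped (log2 fold change 0.58, SE 0.58, adjusted p = 0.789). Without that library the change was -0.13. The difference between the tissues in the genotype change, tested as an interaction over 14192 genes of which 0% passed, was 3.41 (SE 0.66, adjusted p = 0.131), and 0 of 30 members passed it while 4 had an unadjusted p below 0.05, against 2089 of all genes. Without Norad+/+ brain replicate 2 the difference was 2.71 (SE 0.26, adjusted p = 0.0194), and without Norad-/- spleen replicate 3 it was 3.50 (SE 0.72, adjusted p = 0.0448), within a range of 0.0194 to 0.364 over all alternatives. Of all genes, 2 passed without the former library and 317 of 14230 without the latter.

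**Figure D5:**
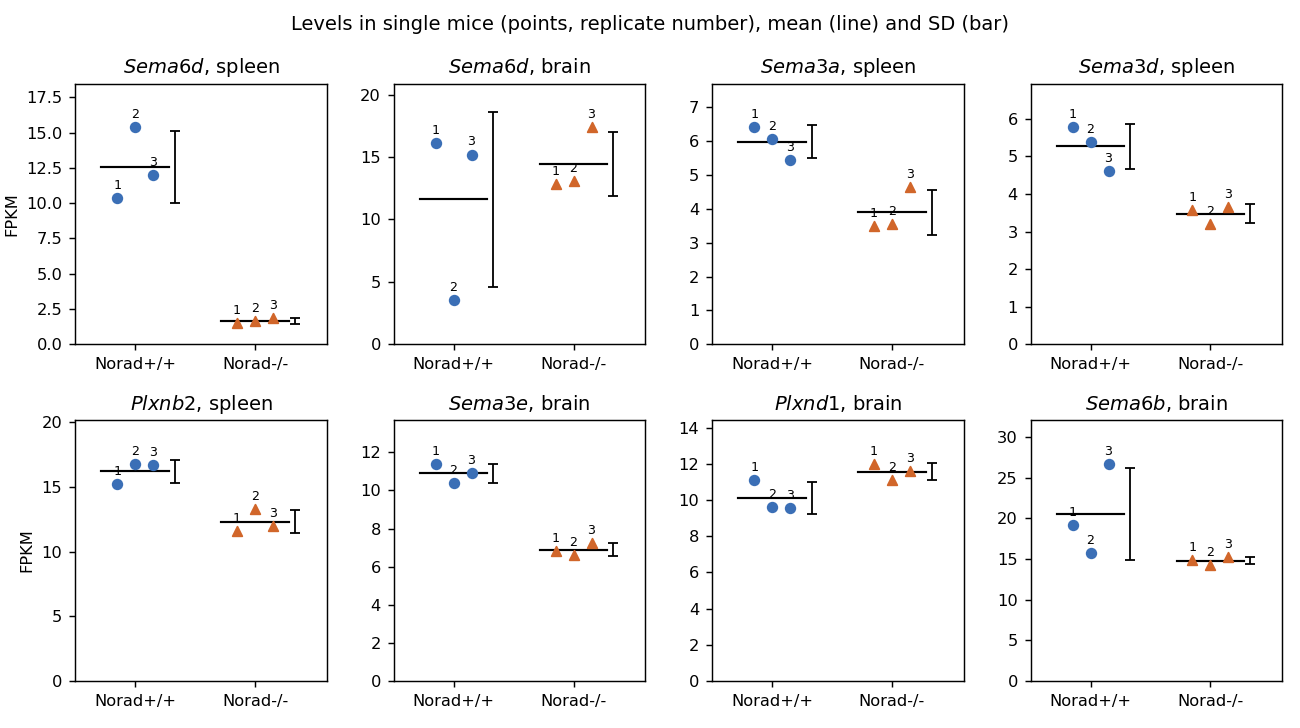
FPKM of 7 genes in single mice (points with replicate numbers), with the mean (line) and SD (bar) of each group of 3, each panel on its own axis from 0. Sema6d in spleen has Norad-/- points at 1.47 to 1.89 and Norad+/+ points at 10.4 to 15.4, and Sema6d in brain has 1 low Norad+/+ point at 3.54.

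Some cell type marker sums also differed between the spleen groups. The 4 red cell precursor markers summed to 248, 600 and 890 FPKM in Norad+/+ and 17.8, 13.2 and 334 FPKM in Norad-/- spleen, and the 3 neutrophil markers measured to 432, 1143 and 888 FPKM and 126, 80.2 and 631 FPKM. The 3 T cell markers summed to 91 to 113 FPKM in Norad+/+ and 133 to 164 FPKM in Norad-/- spleen, the 2 natural killer markers to 23.7 to 27.9 and 17.6 to 20.1 FPKM, and the 2 plasma cell markers to 266 to 476 and 526 to 628 FPKM, none of these markers being below 0.1 FPKM in every library of a group. The groups did not overlap for the T cell, natural killer and plasma cell sums. They overlapped for the red cell precursor and neutrophil sums, and also for the B cell, dendritic cell, megakaryocyte and macrophage sums. The part of these cell types in the changes of Sema6d and of the other spleen members was not tested.

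Of the 21 spleen members tested, 13 were ligands. Of the 14 with a log2 fold change below 0, Sema6d among them, 10 were ligands. Groups of 3 did not overlap at 7 of the spleen members tested, 6 lower in Norad-/- (Sema6d, Sema3a, Sema3d, Sema6a, Sema6b and Plxnb2) and 1 higher (Plxna3). Over all genes tested in spleen, 14.9% did not overlap and were lower and 11.6% higher. The median log2 fold change of the 13 ligands tested was -0.21 and that of the 8 receptors 0.02, against -0.02 for all genes. Without Norad+/+ spleen replicate 3, 7 members were lower and 1 higher, while 16.8% and 17.2% of all genes were.

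Sema3a, the founding repellent of axons, which signals through Nrp1 and class A plexins, was at 6.42, 6.08 and 5.45 FPKM in Norad+/+ and 3.49, 3.55 and 4.65 FPKM in Norad-/- spleen. The groups did not overlap, and the log2 fold change was -0.62 (SE 0.14, adjusted p = 0.152). Sema3d, a class 3 ligand, was at 5.78, 5.39 and 4.62 FPKM in Norad+/+ and 3.58, 3.19 and 3.66 FPKM in Norad-/- spleen, also without overlap (-0.58, SE 0.12, adjusted p = 0.145). Both genes lie on chromosome 5, where Sema3d, Sema3a, Sema3e and Sema3c occupy 5346884 bases. The other class 3 ligands tested in spleen overlapped, Sema3f with a log2 fold change of 0.02 and Sema3g with -0.27.

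Plxnb2, the receptor of Sema4c and of angiogenin, was at 15.2, 16.8 and 16.7 FPKM in Norad+/+ and 11.6, 13.3 and 12 FPKM in Norad-/- spleen. Every Norad-/- value was lower, with a log2 fold change of -0.39 (SE 0.09, adjusted p = 0.152). In brain its values were 10.1, 10.5 and 10.4 FPKM in Norad+/+ and 9.66, 9.72 and 10.3 FPKM in Norad-/- libraries, which overlapped (-0.06, SE 0.08).

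Sema6a, a ligand of Plxna2 and Plxna4, was at 1.87, 1.83 and 2.27 FPKM in Norad+/+ and 1.32, 1.52 and 1.64 FPKM in Norad-/- spleen (-0.39, SE 0.15, adjusted p = 0.222). Sema6b was at 1.57, 2.08 and 2.73 FPKM in Norad+/+ and 1.35, 1.52 and 1.56 FPKM in Norad-/- spleen (-0.47, SE 0.21, adjusted p = 0.271). At both genes the Norad+/+ replicate 3 was highest, and without it the changes were -0.30 and -0.28. Plxna3, the receptor that with Nrp2 conveys Sema3f, was at 1.33, 1.25 and 1.09 FPKM in Norad+/+ and 1.63, 1.85 and 1.44 FPKM in Norad-/- spleen, where every Norad-/- value was higher (0.39, SE 0.16, adjusted p = 0.234).

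The remaining spleen members tested overlapped, with log2 fold changes from -0.27 (Sema3g) to 0.16 (Plxnc1). Plxna1, the receptor of Sema6d with 4 PREs, was at 5.98, 6.1 and 6.83 FPKM in Norad+/+ and 5.29, 5.75 and 6.57 FPKM in Norad-/- spleen (-0.10, SE 0.11). Members below the filter in spleen were Plxna2, Plxna4, Plxnb3, Sema3b, Sema3c, Sema3e, Sema4f, Sema4g, Sema5b and Sema6c. Of these Plxnb3 was at 0.244, 0.248 and 0.299 FPKM in Norad+/+ and 0.106, 0.177 and 0.207 FPKM in Norad-/- spleen. Its groups did not overlap and were lower in Norad-/-, at levels below the filter, so it was not tested in the main fit.

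In brain the member with the smallest p was Sema3e. It was at 11.4, 10.4 and 10.9 FPKM in Norad+/+ and at 6.84, 6.61 and 7.24 FPKM in Norad-/- mice. The groups were well apart, the spread within each was small, and the level was 1.57-fold lower on the log2(FPKM + 0.1) scale (log2 fold change -0.65, SE 0.09, 95% interval -0.87 to -0.44). The adjusted p was 0.178 and ranged from 0.118 to 0.68 over all alternatives, under which the change stayed between -0.69 and -0.59. Without Norad+/+ brain replicate 3 it was -0.65, and without Norad-/- brain replicate 3, which held pituitary RNA, -0.69. Sema3e had no match to UGUANAUA in its longest annotated 3' UTR.

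Plxnd1, the receptor of Sema3e, was at 11.1, 9.6 and 9.57 FPKM in Norad+/+ and 12, 11.1 and 11.6 FPKM in Norad-/- brain. Norad-/- values reached above every Norad+/+ value by a narrow margin (log2 fold change 0.20, SE 0.10, adjusted p = 0.718). In spleen the same receptor overlapped between the genotypes (0.09, SE 0.09).

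Groups did not overlap at 7 of the 30 brain members tested, 4 lower in Norad-/- (Sema3e, Sema3a, Sema6b and Nrp1) and 3 higher (Plxnd1, Sema4b and Plxna3). Over all genes tested in brain, 6.56% did not overlap and were lower and 10.6% higher. The median log2 fold change over the 30 members was -0.01, against 0.02 for all genes. Norad+/+ brain replicate 3 was the lowest of the 6 brain libraries at 16 members and the highest at 7. Without it, 10 members were lower without overlap and 4 higher, while 13.6% and 20.7% of all genes were.

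Nrp1, which binds class 3 semaphorins and vascular endothelial growth factor, was at 7.15, 6.18 and 7.47 FPKM in Norad+/+ and 5.75, 6.01 and 6.02 FPKM in Norad-/- brain (-0.22, SE 0.10, adjusted p = 0.718). The 4 endothelial markers summed to 60.1, 48.3 and 61.3 FPKM in Norad+/+ and 48.5, 39.8 and 47.7 FPKM in Norad-/- brain, which overlapped. Their part in the Nrp1 value was not tested. The 3 choroid plexus markers summed to 384, 603 and 640 FPKM in Norad+/+ and 375, 355 and 373 FPKM in Norad-/- brain, without overlap. Their part in the changes of brain members was not tested. Sema3a was at 4.58, 4.82 and 4.99 FPKM in Norad+/+ and 4.23, 4.2 and 4.46 FPKM in Norad-/- brain (-0.15, SE 0.09, adjusted p = 0.718). Sema6b, whose values are given above, had a log2 fold change of -0.43 (SE 0.20, adjusted p = 0.718), which was -0.22 without Norad+/+ brain replicate 3.

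Sema4b was at 3.06, 3.19 and 2.27 FPKM in Norad+/+ and 3.29, 3.43 and 4.02 FPKM in Norad-/- brain (0.33, SE 0.16, adjusted p = 0.718). Plxna3 was at 4.62, 4.39 and 2.78 FPKM in Norad+/+ and 4.9, 4.87 and 4.7 FPKM in Norad-/- brain (0.32, SE 0.20, adjusted p = 0.719). At both genes Norad+/+ replicate 3 was the lowest library, and without it the changes were 0.19 and 0.10. Sema3b, a class 3 ligand below the filter, was at 0.968, 0.93 and 0.755 FPKM in Norad+/+ and 1.01, 0.988 and 1.02 FPKM in Norad-/- brain. Its groups did not overlap, and it was not tested.

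In both tissues the groups of Sema3a and Sema6b did not overlap and were lower in Norad-/-, and those of Plxna3 were higher, which makes 3 of the 21 members tested in both tissues. Of the 10481 genes tested in both, 2.13% did not overlap and kept their direction. At Sema6b and Plxna3 the brain change shrank without Norad+/+ brain replicate 3, as given above. The paper lists brains and spleens of 3 mice per genotype, which reads as each mouse giving both tissues. No label links the libraries of a mouse. These values may therefore not be independent. The tissue and interaction tests, fitted without pairing, share this limit. The remaining 23 brain members tested overlapped, with log2 fold changes from -0.34 (Nrp2) to 0.58 (Sema6d).

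The members with and without a PRE were set side by side. In spleen the median log2 fold change was -0.16 for the 10 tested members with a PRE and -0.01 for the 11 without, and in all genes it was 0.01 with and -0.03 without. In brain it was 0.02 for the 13 members with a PRE and -0.02 for the 17 without, and in all genes 0.02 with and 0.03 without. Of the tested spleen members that did not overlap, Sema6d, Sema3a, Sema3d, Sema6b and Plxna3 had a PRE and Sema6a and Plxnb2 had none. Plxna3 was higher in Norad-/- and the rest lower. Of the tested brain members that did not overlap, Sema3a, Sema6b and Plxna3 had a PRE and Sema3e, Nrp1, Plxnd1 and Sema4b had none. The share below 0 in spleen was 70% of members with a PRE and 63.6% without, and 48.7% and 55.9% of all genes. In brain it was 46.2% and 64.7% of members, and 46.9% and 44.5% of all genes.

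The genes around the family were followed in 5 lists of 92 genes, covering co-receptors, other neuropilin ligands, plexin-linked GTPases, cytoskeletal effectors and other guidance cues. In the genotype comparisons 0 genes of any list passed by limma in brain or spleen. At an unadjusted p below 0.05, 3 of the 85 list genes tested in brain (3.53%) differed, against 6.62% of all genes. In spleen 14 of 65 did (21.5%), close to the 21% of all genes, so the list genes named below do not stand out by their number.

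Among co-receptors and other semaphorin receptors in spleen, Tyrobp, the adaptor that pairs with Trem2 in a Plxna1 complex, was at 231, 253 and 264 FPKM in Norad+/+ and 188, 192 and 198 FPKM in Norad-/- mice (-0.37, SE 0.08, adjusted p = 0.152). Met, the receptor tyrosine kinase that couples to class B plexins, was at 2.95, 2.97 and 2.75 FPKM against 2.13, 2.32 and 2.32 FPKM (-0.34, SE 0.10, adjusted p = 0.186). Kdr, a receptor of vascular endothelial growth factor, had a log2 fold change of -0.33 (SE 0.14). The Norad-/- groups lay below the Norad+/+ groups at all 3 genes. The 3 macrophage markers summed to 212 to 255 FPKM in Norad+/+ and 174 to 214 FPKM in Norad-/- spleen, which overlapped. The natural killer sums given above were lower without overlap, and the neutrophil sums overlapped. The part of these cell types in the Tyrobp value was not tested.

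In brain the co-receptor list was led by Flt1, a receptor of vascular endothelial growth factor, with 13, 12.7 and 12.1 FPKM in Norad+/+ and 10.7, 10.5 and 9.64 FPKM in Norad-/- mice (-0.29, SE 0.09, adjusted p = 0.69). Ptk7 (0.21, SE 0.12) and Tyrobp (0.50, SE 0.30) followed by p. Of the other neuropilin ligands, Vegfa, Vegfb and Vegfc overlapped in brain with log2 fold changes of -0.16, 0.04 and 0.04, and in spleen Figf, which encodes vascular endothelial growth factor D, was at 2.23, 2.79 and 2.36 FPKM against 2.82, 3.81 and 3.49 FPKM (0.43, SE 0.15, adjusted p = 0.203). Vegfa and Tgfb1 overlapped in spleen, with -0.45 and -0.15.

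Among the GTPases and their regulators in spleen, Arhgef12, the exchange factor that links class B plexins to RhoA, was at 8.63, 10.8 and 11.1 FPKM in Norad+/+ and 5.91, 6.74 and 8.43 FPKM in Norad-/- mice (-0.54, SE 0.16, adjusted p = 0.187). Sh3bp1 (0.29, SE 0.08) and Rras2 (0.28, SE 0.10) were higher in every Norad-/- library, with adjusted p = 0.183 and 0.198. In brain the genes of this list with the smallest p were Cfl1, Rnd1 and Rras2, with log2 fold changes of 0.22, 0.72 and 0.20 and overlapping groups.

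Among the effectors in spleen, the kinase Fyn was at 38.1, 34 and 35.9 FPKM in Norad+/+ and 42.5, 45.2 and 42 FPKM in Norad-/- mice (0.26, SE 0.08, adjusted p = 0.183). The kinase Fes (-0.28, SE 0.08) lay lower and Dpysl2, which encodes a collapsin response mediator (0.34, SE 0.11), lay higher, each without overlap. In brain Dpysl4 (0.25), Mical2 (-0.16) and Dpysl5 (0.15) had the smallest p of that list. Of the other guidance genes, Ntn4, a netrin of basement membranes, was at 4.54, 4.46 and 5.4 FPKM in Norad+/+ and 2.48, 3.51 and 3.27 FPKM in Norad-/- spleen (-0.63, SE 0.16, adjusted p = 0.166), beside Ntn1 (0.62, SE 0.23) and Efna1 (-0.46, SE 0.17). In brain Ephb3 (0.29), Efnb1 (0.32) and Dcc, the netrin receptor (0.25), lay higher in every Norad-/- library, each with adjusted p = 0.718.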

How the data were processed

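RNA-seq was analysed for 12 libraries, 3 per genotype and tissue. Single reads of 75 bp were quality-filtered by the authors (NGS QC Toolkit) and placed on GRCm38 by TopHat2 2.0.12, of which uniquely mapping reads were used. The authors deposited FPKM values, which the submitters' processing notes credit to StringTie 1.2.2. Each table held 24062 genes, and 0 value columns belonged to no sample. The annotation behind the FPKM values is not given in the sources used here.

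The 31 members, the gene lists and the tests were chosen with earlier results of these data known. Genes averaging 1 FPKM or more were tested on log2(FPKM + 0.1), a scale that understates changes of low genes, by limma 3.58.1 (R 4.3.3) fitted over all genes with a trended variance, with Benjamini-Hochberg adjustment and a threshold of 0.05. Genotype was compared within each tissue over its 6 libraries, tissue within Norad+/+, and genotype by tissue as an interaction over all 12. Libraries are separate mice within a group. Depth was read from the smallest FPKM steps of 5415 genes that have 1 transcript. Since 44.3% to 49% of values at or below 0.1 FPKM came out whole within 2%, reads were not recovered and no count model was run.

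Values in every library are given for members that passed a genotype comparison, for members whose genotypes do not overlap, and for the 4 ligands and 4 receptors with the highest mean in each tissue. Of each of the 5 pathway lists, the 3 genes with the smallest p in each tissue are named. Plxna1, Plxnb3 and Sema3b in further places, the Norad coordinates and marker sums were added after the values were seen. Results were recomputed with another pseudocount, filter, scaling or variance model, with a replicate block, and with each library left out. Non-overlap without the libraries that stood apart was added after the data were seen. The fit was tested on simulated data. Python 3.11.15, pandas 2.3.3, numpy 2.4.6 and matplotlib 3.10.9 were used.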

Additional observations from a re-analysis of the deposited data

How the results depend on the processing

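Sema6d in spleen fell under every alternative and passed in 12 of 15. The count of spleen members lower in Norad-/-, 1, became 0 with a replicate block. With a library left out it ranged from 0 to 1, being 0 without Norad-/- spleen replicate 1 or 2. All 6 of these fits held fewer samples, and Sema6d passed in 4 of them. The cause of the differences was not tested. The counts of members changed in brain were 0 in each direction under all alternatives. The count of members higher in brain than in spleen, 17, was 10 at a mean of at least 5 FPKM, where fewer genes were tested, and 17 otherwise, and that of members higher in spleen ranged from 6 to 10. The count of members whose genotype change was more positive in brain, 0, ranged from 0 to 1 with a library left out, being 1 without Norad+/+ brain replicate 2, where 2 of all genes passed, or Norad-/- spleen replicate 3, where 317 did. Leaving out Norad+/+ brain replicate 2 also turned Sema6d to -0.13 in brain (range with a library left out -0.13 to 0.95) and to 0.33 between tissues (-0.75 to 0.33). Some small brain changes turned sign, Vegfc to -0.0034 with quantile normalization, and the cause was not tested. With a library left out Vegfc ranged from -0.04 to 0.16, Vegfa from -0.40 to 0.03 and Vegfb from -0.03 to 0.09. The median of all genes shifted on rescaling to TPM, from -0.02 to 0.10 in the spleen genotype comparison and from -0.24 to -0.04 between tissues, which turned the direction of no member compared between tissues and of none whose genotypes did not overlap.

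Same-numbered libraries did not deviate together in all pairs, with correlations of 0.06, 0.07 and 0.11 in brain, 0.34, -0.15 and 0.29 in spleen, and 0.03, 0.05 and 0.06 between tissues, so the numbers were not taken to pair mice. Every brain library correlated best with its own number, while in spleen and between tissues not every library did. The replicate block raised the adjusted p of Sema6d in spleen to 0.0617 (log2 fold change -2.83) and changed no other member's call.

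Low members limit the comparison. At these depths values below about 0.1 FPKM rest on few reads, and groups of 3 leave wide intervals for genes such as Sema6d and Sema4g in brain.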
